A study of Mus musculus with 4 samples.

Results

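The olfactory receptor arrays of mouse chromosomes 2 and 9 were examined in MeDIP-seq peak lists of pancreatic islets and sperm. Members were all peaks that overlapped, by at least 1 bp, chromosome 2 from 85000000 to 89900000 (4.9 Mb) or chromosome 9 from 37700000 to 39900000 (2.2 Mb) on the mm9 build. They were chosen by position alone, in windows that were set with earlier results of these data known. Of 690963 peaks in the 4 lists, 659 were members, with 185 in control islets, 201 in T2D islets, 134 in control sperm and 139 in T2D sperm. The 5 Mb on either side of each window held 6022 peaks and served as flanks.

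The study compared DNA methylation between diabetic and control fathers (type 2 diabetes, T2D), in their sperm and in islets of their young. All animals were ICR mice, an outbred strain. T2D founders were males on a high-fat diet (33% of energy as fat) from weaning at 3 weeks, given a low dose of streptozotocin, a beta cell toxin, at 12 weeks, and kept when fasting glucose lay at 7 to 11 mM in the 4 weeks that followed. Control founders were sibling males on a control diet, and all dams had standard diet. Control and T2D islets came from 3-week-old offspring, 6 of control and 6 of T2D fathers. Control and T2D sperm came from the cauda epididymis of 6 control and 6 T2D founders at 16 weeks, after lysis of somatic cells. Each group had 1 library, and the labels state neither how the animals were combined nor the sex of the offspring. No difference therefore has a replicate check, no p-value is given, and every interval is a 95% interval for counting error alone. The sperm libraries held 31053754 and 31833988 unique tags (sequenced reads). The depth of the islet libraries is unknown. The labelled tissues were not checked against marker genes, because no gene annotation of mm9 was used here.

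Olfactory receptors are the G protein-coupled receptors by which sensory neurons of the nose detect odorants. They form the largest gene family of the mouse, most of it in tandem arrays that grew by gene duplication. A mature sensory neuron expresses a single receptor allele, and most other tissues express few of these genes. MeDIP pulls down sheared DNA with an antibody against 5-methylcytosine, which in mammals lies mostly at CpG dinucleotides. Recovery of a fragment thus depends on how many methylated CpGs it carries, and DNA poor in CpG is recovered weakly even where it is methylated.

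RefSeq names 377 olfactory receptor genes and pseudogenes on chromosome 2 and 179 on chromosome 9 of GRCm38.p6, a later build than that of the peaks. The largest array of chromosome 2 ran from Olfr987 to Olfr1274, with 222 coding genes and 71 pseudogenes, and was interrupted by 3 other coding genes, among them Fads2b, a fatty acid desaturase gene. Its neighbours were Lrrc55 and the receptor tyrosine phosphatase gene Ptprj. The largest array of chromosome 9 ran from Olfr160 to Olfr986, with 95 coding genes and 32 pseudogenes, between the pannexin channel gene Panx3 and the zinc finger gene Zfp202. Positions were not carried from that build to mm9, so the window edges were not checked against genes and no peak is assigned to a gene.

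The 250 bases before annotated receptor starts held almost no CpG. The median was 1 CpG over 187 starts of the chromosome 2 array (quartiles 0 and 1) and 1 over 80 starts of the chromosome 9 array (0 and 1), against 6 over 31903 starts of all genes that are not olfactory receptors (2 and 16). The highest count was 7 and 5 in the arrays. No CpG at all was present before 46.0% and 43.8% of array starts and before 6.79% of other starts. The 40 nearest other genes with an entry, 20 on each side, had a median of 11 CpGs around the chromosome 2 array and 9 around that of chromosome 9. Median GC content was 30.8% and 34.4% before array starts and 52.8% before other starts. Low CpG and GC were not particular to these arrays. Olfactory receptor genes outside them had a median of 1 CpG over 681 starts (quartiles 0 and 2). No CpG was present before 43.8% of those starts, and their median GC content was 35.2%. In 68.2% of array entries the annotated start was the ATG itself, so the sequence there precedes the coding region and not a mapped transcription start. This held for 3.85% of the entries of genes that are not olfactory receptors. The comparison with those genes therefore sets unlike kinds of start side by side.

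**Figure D1:**
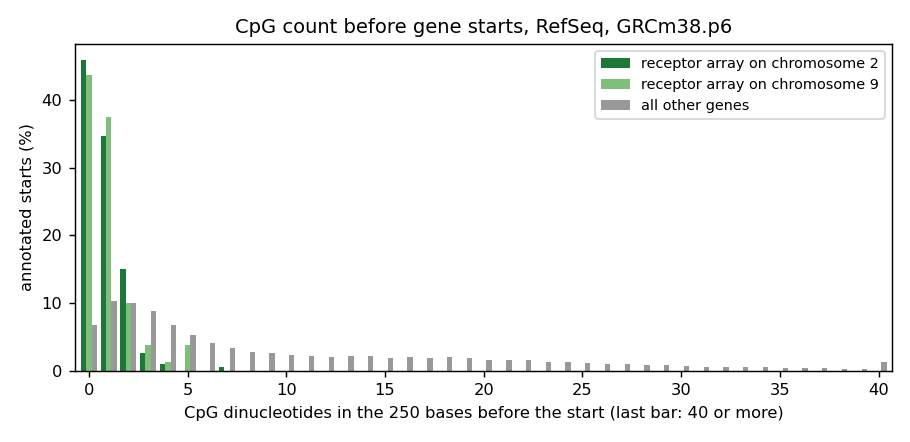
Share of annotated starts (y axis, %) by the number of CpG dinucleotides in the 250 bases before the start (x axis), for the receptor arrays of chromosome 2 (187 starts) and chromosome 9 (80 starts) and for all other genes (31903 starts), RefSeq, GRCm38.p6. The array bars end at 7 and 5 CpGs, whereas other genes spread beyond 40.

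The sequences are shown as examples of such starts. CpG content of the mm9 windows was not measured, and its part in the peak numbers was not tested. Printed 5′ to 3′ are the 250 bases before the start of the first 3 class II (tetrapod type) receptors of each array that had an entry, then those of the first other gene after each array. Capitals mark CpG dinucleotides, and the sequences are from RefSeq, GRCm38.p6.
Olfr988: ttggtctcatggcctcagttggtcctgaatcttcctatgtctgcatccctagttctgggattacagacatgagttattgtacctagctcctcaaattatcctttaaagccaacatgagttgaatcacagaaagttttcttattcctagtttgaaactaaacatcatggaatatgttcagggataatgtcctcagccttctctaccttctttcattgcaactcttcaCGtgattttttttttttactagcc
Olfr992: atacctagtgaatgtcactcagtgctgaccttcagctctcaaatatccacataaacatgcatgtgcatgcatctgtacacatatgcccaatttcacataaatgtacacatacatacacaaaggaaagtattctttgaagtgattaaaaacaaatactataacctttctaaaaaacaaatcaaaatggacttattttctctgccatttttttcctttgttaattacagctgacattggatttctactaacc
Olfr994: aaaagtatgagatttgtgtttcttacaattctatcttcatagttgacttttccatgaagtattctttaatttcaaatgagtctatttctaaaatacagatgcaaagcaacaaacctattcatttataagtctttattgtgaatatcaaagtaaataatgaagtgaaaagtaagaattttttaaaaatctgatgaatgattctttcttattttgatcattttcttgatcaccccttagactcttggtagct
Olfr160: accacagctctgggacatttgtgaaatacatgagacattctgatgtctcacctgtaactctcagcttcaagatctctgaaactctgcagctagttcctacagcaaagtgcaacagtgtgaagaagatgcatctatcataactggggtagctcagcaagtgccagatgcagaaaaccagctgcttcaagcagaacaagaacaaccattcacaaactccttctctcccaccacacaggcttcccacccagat
Olfr875: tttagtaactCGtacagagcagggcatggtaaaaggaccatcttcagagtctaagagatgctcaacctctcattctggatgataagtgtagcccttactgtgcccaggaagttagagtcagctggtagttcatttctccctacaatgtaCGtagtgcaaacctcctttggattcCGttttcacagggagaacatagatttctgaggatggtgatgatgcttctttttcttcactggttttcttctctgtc
Olfr876: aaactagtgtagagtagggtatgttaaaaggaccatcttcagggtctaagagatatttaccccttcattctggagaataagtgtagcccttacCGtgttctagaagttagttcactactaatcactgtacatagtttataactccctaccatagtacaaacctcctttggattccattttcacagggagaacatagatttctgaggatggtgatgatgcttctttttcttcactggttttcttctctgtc
Ptprj: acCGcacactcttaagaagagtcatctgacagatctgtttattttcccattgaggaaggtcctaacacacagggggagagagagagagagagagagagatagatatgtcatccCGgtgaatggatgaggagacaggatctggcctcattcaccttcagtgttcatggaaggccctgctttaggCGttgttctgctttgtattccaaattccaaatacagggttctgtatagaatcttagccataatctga
Zfp202: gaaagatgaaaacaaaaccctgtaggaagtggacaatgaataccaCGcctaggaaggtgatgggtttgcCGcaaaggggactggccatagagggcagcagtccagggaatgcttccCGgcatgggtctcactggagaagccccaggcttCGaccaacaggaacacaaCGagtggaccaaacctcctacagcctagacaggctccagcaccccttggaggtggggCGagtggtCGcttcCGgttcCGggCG
Olfr992, Olfr994 and Olfr160 had no CpG in this stretch, Olfr988 and Olfr876 had 1 and Olfr875 had 3. Ptprj had 3 at its first listed start and Zfp202 had 10. The annotated start was the ATG for the printed receptors of chromosome 2, and not for those of chromosome 9, Ptprj or Zfp202. The neighbours Olfr875 and Olfr876 shared an identical run of 74 bases that ended at their starts, the longest among the printed receptors of either array. The longest run shared by any pair of printed chromosome 2 receptors was 11 bases.

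Both windows held far fewer methylated peaks than the DNA around them, in 4 of 4 libraries. The chromosome 2 window had 134 peaks in control islets and 140 in T2D islets, but 87 in control sperm and 82 in T2D sperm. Its density was 27.3 and 28.6 peaks per Mb in islets and 17.8 and 16.7 in sperm. The sperm libraries were thus the lower pair, while their flanks, at 68.4 and 72.1 peaks per Mb, were level with the 68.7 and 71.9 of islets. Window over flank density was 0.398 (exact binomial interval 0.328 to 0.480) in control islets, 0.397 (0.329 to 0.477) in T2D islets, 0.260 (0.205 to 0.325) in control sperm and 0.232 (0.182 to 0.292) in T2D sperm. Each interval lies below 1. The islet and sperm intervals do not overlap, but their separation was narrow. With flanks of 2 Mb the control islet interval (0.308 to 0.470) met that of control sperm (0.189 to 0.310), and with windows trimmed by 250 kb the T2D islet interval began at 0.302, under the upper end of control sperm at 0.313.

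The chromosome 9 window had 51 peaks in control islets, 61 in T2D islets, 47 in control sperm and 57 in T2D sperm, or 23.2, 27.7, 21.4 and 25.9 per Mb. Here the tissues overlapped. Its flanks held 71.8 and 77.1 peaks per Mb in islets and 84.2 and 88.0 in sperm. The ratio to the flanks was 0.323 (0.238 to 0.429) and 0.360 (0.272 to 0.467) in islets and 0.254 (0.185 to 0.340) and 0.294 (0.221 to 0.385) in sperm, control first. The intervals of the tissues overlap on chromosome 9.

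The windows were low against each flank taken alone. The left flank of chromosome 2 was itself sparse, with 49 to 55 peaks per Mb over the 4 libraries, and the right flank held 83.8 to 93.0. Against the left flank, islets had ratios of 0.510 (0.412 to 0.630) and 0.519 (0.421 to 0.639) and sperm of 0.362 (0.280 to 0.465) and 0.327 (0.252 to 0.421), with the control intervals overlapping, and against the right flank the 4 ratios were 0.326, 0.322, 0.202 and 0.180. On chromosome 9 the left flank held 51.6 to 61.8 and the right flank 92.0 to 114.2 peaks per Mb, with ratios of 0.367 to 0.50 and of 0.194 to 0.281. All autosomes held 68.1 and 67.8 peaks per Mb in control and T2D islets and 72.7 and 73.2 in sperm, counted between the outermost peaks. Peaks covered 2.24% and 2.39% of the chromosome 2 window in islets and 1.50% and 1.35% in sperm, against 6.57% to 8.05% of the autosomes. In the chromosome 9 window, islet peaks covered 1.83% and 2.33% and sperm peaks 1.77% and 2.16%.

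**Figure D2:**
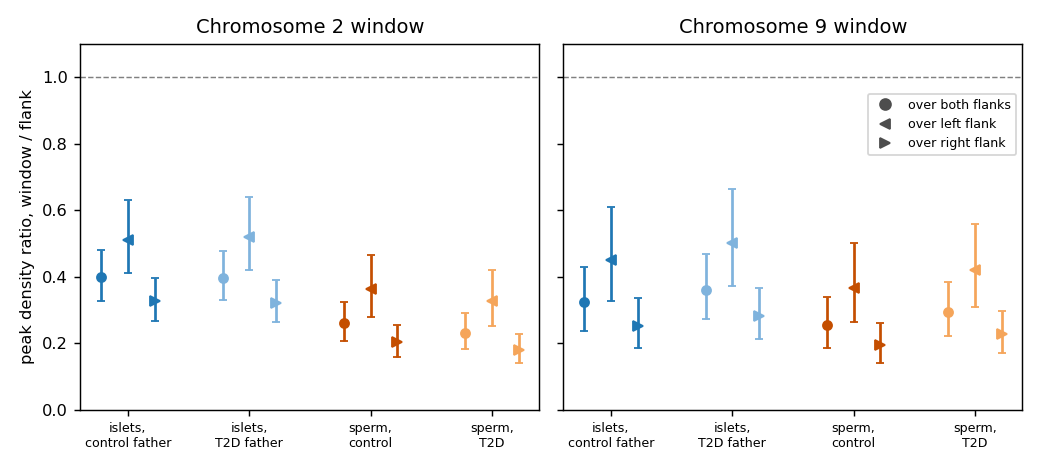
Peak density in each receptor window divided by that in both flanks, the left or the right flank (y axis, ratio from 0), for the 4 libraries (x axis, 1 library each), with exact 95% binomial intervals for counting error. All ratios and intervals lie below the dashed line at 1, and on chromosome 2 the sperm values of 0.260 and 0.232 lie under the islet values of 0.398 and 0.397.

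Stretches this poor in peaks were uncommon but not confined to the receptor arrays. When the autosomes were cut into 479 consecutive stretches of 4.9 Mb, 9 (1.88%) had fewer peaks than the chromosome 2 window in control islets, 11 (2.3%) in T2D islets, 6 (1.25%) in control sperm and 4 (0.835%) in T2D sperm. Among 1086 stretches of 2.2 Mb, 37 (3.41%) and 65 (5.99%) in islets and 57 (5.25%) and 85 (7.83%) in sperm had fewer than the chromosome 9 window. The median stretch held 69.0 to 77.5 peaks per Mb, and the lowest held 0 to 5.51. This ranking describes position among all stretches and is no test.

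Density changed at the window edges. In the 500 kb before the chromosome 2 window, control islets, T2D islets, control sperm and T2D sperm had 51, 46, 44 and 43 peaks, and in the first 500 kb inside it 14, 20, 15 and 18. The 500 kb just past its end held 22, 22, 19 and 20, and the next 500 kb 43, 55, 45 and 45. The low stretch therefore ran on for about 1 more step on that side. At chromosome 9 the 500 kb before the window held 29, 29, 33 and 34 peaks, the first 500 kb inside 9, 13, 12 and 10, and the 500 kb past its end 47, 41, 50 and 52. Inside the chromosome 2 window the step with the fewest peaks over the 4 libraries together, from 1.5 to 2 Mb past its start, held 4, 8, 5 and 2 peaks. The step from 3 to 3.5 Mb was the one with the widest gap between tissues, with 22 and 21 peaks in islets and 8 and 6 in sperm, and was chosen after its values were seen. In the left flank of chromosome 2, 4 or 5 of 10 steps, depending on the library, were at or under the fullest window step. In the right flank of chromosome 9 no step was, in any library.

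**Figure D3:**
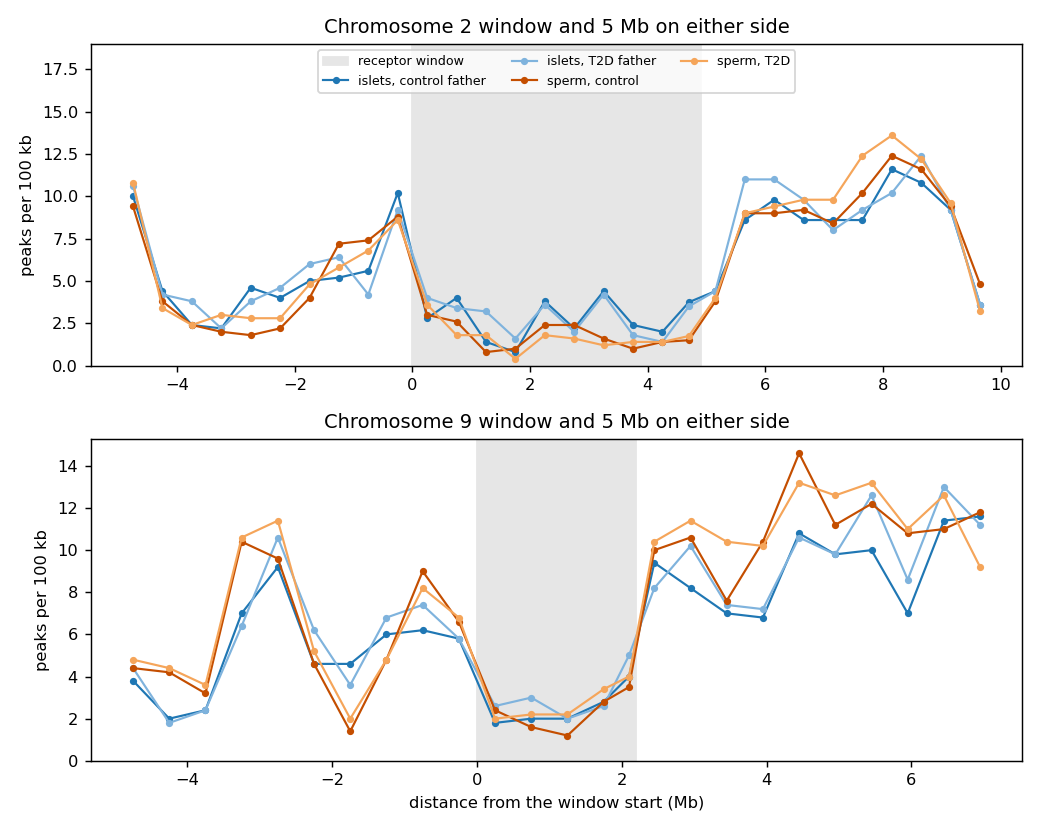
Peaks per 100 kb (y axis) in steps of 500 kb, shorter for the last step in each window, against the distance from the window start (x axis, Mb), for the 4 libraries on chromosome 2 (top) and chromosome 9 (bottom). Inside the grey windows every line stays between 0.4 and 5 peaks per 100 kb, and on chromosome 2 both sperm lines run below both islet lines in the step from 3 to 3.5 Mb.

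At a scale of 100 kb, 6 of 49 bins (12.2%) of the chromosome 2 window had no peak in control islets and 6 (12.2%) in T2D islets. In control sperm 10 bins (20.4%) and in T2D sperm 9 (18.4%) were empty. Over all 24141 autosomal bins the empty share was 3.77%, 3.62%, 4.88% and 4.79% in that order of libraries. On chromosome 9, 2 and 1 of 22 bins were empty in islets and 4 and 2 in sperm. Every bin of either window held a peak in at least 1 library, while 1.65% of autosomal bins held none in any. The longest stretch of either window without a peak was 452.6 kb in control sperm, on chromosome 2 from 85971099 to 86423715, and 364.0 kb in T2D sperm, from 86714160 to 87078148. In islets it was 248.0 kb in the control library, from 86465253 to 86713237, and 222.0 kb in the T2D library, from 89298857 to 89520896. The longest stretch without a peak in any library was 100.7 kb, from 86908049 to 87008719, and on chromosome 9 it was 98.1 kb, from 38995590 to 39093736.

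The gap between tissues was then set against the flanks. In the chromosome 2 window sperm had 0.649 (0.490 to 0.857) times as many peaks as islets in the control libraries and 0.586 (0.440 to 0.775) times in the T2D libraries. In the flanks the same quotient was 0.996 (0.894 to 1.11) and 1.00 (0.903 to 1.11), and over the whole lists 1.06 and 1.07. On chromosome 9 it was 0.922 (0.607 to 1.4) and 0.934 (0.640 to 1.36) in the window and 1.17 (1.06 to 1.30) and 1.14 (1.04 to 1.26) in the flanks. The quotient was lower in the window than in its flanks in both conditions and on both chromosomes, but only on chromosome 2 did the intervals of window and flanks not overlap. Tissue goes with age (3 against 16 weeks) and generation in this design, and these cannot be told apart. The unknown islet depth could also move this quotient, and its part was not tested.

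Peaks in the arrays had lower median width and tags and higher median enrichment than peaks in the flanks. Over both windows the median width was 769 bp in control islets, 789 bp in T2D islets, 813 bp in control sperm and 819 bp in T2D sperm. In the flanks it was 854, 896, 1015 and 988 bp. A median window peak held 29 and 30 tags in islets and 32 in either sperm library, against 38, 39, 51 and 50 in the flanks. All 8 of these medians were lower in the windows, and the gap in width was wider in sperm. On chromosome 9 alone, the interval of the control islet median width (617 to 862 bp) overlapped that of its flanks (839 to 886 bp). Tags were not scaled to depth and do not compare tissues.

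Enrichment, the deposited fold of each peak over the caller's background in its own library, had window medians of 8.31 and 8.15 in islets and 7.38 and 7.67 in sperm. Flank medians were 7.38, 7.25, 6.77 and 6.73. Per the sperm headers the background was local, over 5000 bp, and that of the islet lists is unknown. A higher fold is therefore not read here as stronger methylation. By window, the control sperm median intervals met those of the flanks, at 7.07 on chromosome 2 and at 6.77 on chromosome 9. The deposited score, the caller's p-value as its negative log10 times 10, did not differ between window and flanks beyond the intervals of the medians, which overlapped in each of the 4 libraries. Its window median was above the flank median in islets (93.03 against 82.94 in control, 90.39 against 81.66 in T2D) and below it in sperm (81.58 against 88.60 and 80.72 against 86.29). Of the window peaks, 57.8% (Wilson interval 50.6% to 64.7%) and 53.7% (46.8% to 60.5%) were in the better 50% of their islet list by score, and 43.3% (35.2% to 51.7%) and 45.3% (37.3% to 53.6%) in sperm. Broad peaks of 2000 bp or more were few in the windows, with 2 of 185, 2 of 201, 2 of 134 and 1 of 139. They made up 1.08%, 0.995%, 1.49% and 0.719%, against 3.13%, 3.88%, 6.25% and 6.08% of the whole lists.

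**Figure D4:**
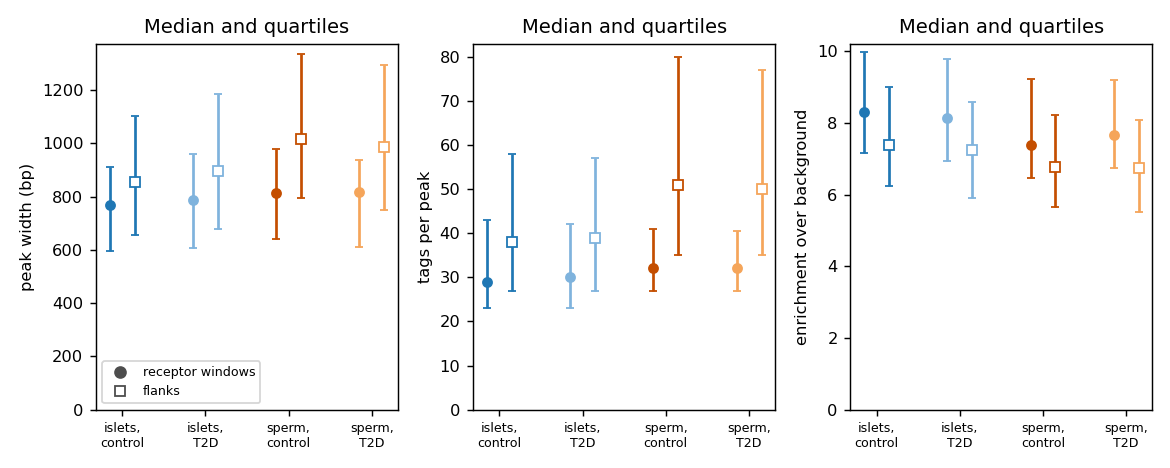
Median (symbol) and quartiles (bars) of peak width in bp, tags per peak and enrichment over background (y axes, from 0) for peaks in both receptor windows (filled circles) and their flanks (open squares) in the 4 libraries (x axis, 1 library each). Window medians are lower for width and tags and higher for enrichment in all 4 libraries.

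The widest member lay on chromosome 2 at the same place in all 4 libraries. It ran from 86428276 to 86431179 in control islets with 190 tags, from 86428205 to 86431204 in T2D islets with 223 tags, from 86428574 to 86431511 in control sperm with 108 tags and from 86428839 to 86431257 in T2D sperm with 121 tags. Its enrichment was below the window median in each library, at 4.25, 3.98, 5.05 and 6.61. In the chromosome 9 window the widest peak of both islet libraries and of T2D sperm also shared a place, near 38426022, with widths of 1622, 1841 and 1751 bp. The widest control sperm peak of that window started at 39863646 and spanned 1409 bp.

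Islet peaks of the combined arrays were less often matched in sperm than islet peaks of the flanks. A partner is a peak elsewhere that shares 1 bp or more, and here either sperm list could provide it. Over both windows 83 of 185 control islet peaks had one, or 44.9% (Wilson interval 37.9% to 52.1%), and 84 of 201 T2D islet peaks, or 41.8% (35.2% to 48.7%). The flanks gave 70.5% (68.0% to 72.8%) and 68.5% (66.1% to 70.8%). The 102 control and 117 T2D islet peaks without a sperm partner made up 55.1% and 58.2% of the members, against 30.7% and 30.8% of the whole islet lists. In the opposite direction 59.0% (50.5% to 66.9%) of control and 55.4% (47.1% to 63.4%) of T2D sperm members overlapped an islet peak, against 66.8% and 65.8% in the flanks. Sperm members without an islet partner came to 41% and 44.6%, against 31.8% and 33.4% of the whole sperm lists. The sperm lists hold fewer peaks in the chromosome 2 window for islet peaks to meet, and the part of this in the lower share was not tested. On chromosome 9, where peak numbers were closer, 56.9% (43.3% to 69.5%) of control and 47.5% (35.5% to 59.8%) of T2D islet members had a sperm partner, against 71.9% (68.5% to 75%) and 71.5% (68.2% to 74.5%) in its flanks. The control intervals overlap there, and the T2D intervals do not.

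Merging the 4 lists gave 353 regions in the windows. All 4 libraries had a peak in 46 of them, 13.0% against 21.5% of all 307189 merged regions. Both islet libraries and neither sperm library had a peak in 59, 16.7% against 8.39% of all regions. Both sperm libraries and neither islet library had a peak in 22, 6.23% (Wilson interval 4.15% to 9.26%) against 9.07%, which that interval includes. A single library had a peak in 174 regions, 49.3% against 35.7%. The flanks, at 21.5%, 8.20%, 10.3% and 34.9%, were near the values of all regions. On chromosome 2 the window shares were 11.6%, 18.6%, 5.37% and 49.6%, with intervals apart from the shares of all regions. On chromosome 9 they were 16.2% (10.5% to 24.2%), 12.6% (7.66% to 20.1%), 8.11% (4.32% to 14.7%) and 48.6% (39.6% to 57.8%). Only the single-library interval of chromosome 9 lay apart from the share of all regions.

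**Figure D5:**
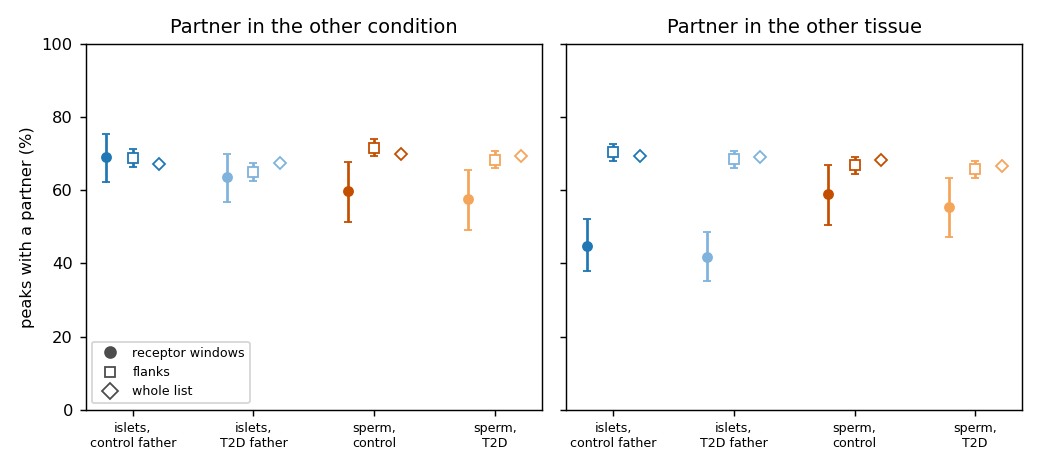
Share of peaks (y axis, % from 0 to 100) with a partner in the other condition of the same tissue (left) and in either list of the other tissue (right), for receptor windows, flanks and whole lists in the 4 libraries (x axis, 1 library each), with 95% Wilson intervals. On the right the islet windows, at 44.9% and 41.8%, lie well under their flanks at 70.5% and 68.5%, and on the left the islet windows overlap their flanks.

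A few regions of both arrays carried dense sperm peaks and no islet peak within 1000 bp. On chromosome 2 from 86455988 to 86456791 control sperm had 207 tags at an enrichment of 16.84 and T2D sperm had 202 tags at 18.20. From 89356965 to 89357968 the sperm libraries had 127 and 100 tags at 16.91 and 16.71. The next region of this kind, from 87329756 to 87330536, was far weaker, with 27 and 32 tags at 8.30 and 8.89. The leading sperm regions of chromosome 9 ran from 39140187 to 39141099, with 87 tags in each library at 16.47 and 16.64, and from 39692051 to 39693269, with 223 and 217 tags at 14.01 and 13.68. The third of chromosome 9, from 38667285 to 38668418, had 30 and 41 tags. In all, 12 regions of chromosome 2 and 7 of chromosome 9 were of this kind. No share of all merged regions is given under this 1000 bp rule. By plain overlap the class held 13 regions of chromosome 2 (5.37%) and 9 of chromosome 9 (8.11%), against 9.07% of all merged regions. The chromosome 9 interval (4.32% to 14.7%) included that share. The first 2 of each chromosome by enrichment held 87 to 223 tags, against a median of 32 over sperm members. They were picked for high enrichment, which favours high tags, so this contrast does not describe the arrays. Over the whole sperm lists the upper quartile was 77 tags in control and 76 in T2D.

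Regions found in both islet libraries alone were more numerous in these windows than regions found in both sperm libraries alone. By deposited fold, the first 2 of each chromosome were below the first 2 of sperm, and the third was above the third of sperm. Each fold is over its own library's background, and the islet caller and depth are unknown, so this order does not compare the tissues. There were 42 on chromosome 2 and 14 on chromosome 9 with no sperm peak within 1000 bp. For these counts too, no share of all merged regions under that rule is given. By plain overlap the class held 45 regions of chromosome 2 (18.6%) and 14 of chromosome 9 (12.6%), against 8.39% of all merged regions. The chromosome 9 interval (7.66% to 20.1%) included that share. The first on chromosome 2, from 89684184 to 89685169, had 66 tags in control and 70 in T2D islets at enrichments of 14.13 and 13.86. It was followed by 85907485 to 85908486, with 39 and 38 tags at 14.13 and 12.30, and 88313165 to 88313794, with 28 and 56 tags at 11.64 and 11.94. The leading region of chromosome 9, from 38640871 to 38641716, had 38 and 34 tags at 11.10 and 12.22. The others, from 38775910 to 38776752 and from 39303860 to 39304479, had 27 to 38 tags.

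Regions with a peak in all 4 libraries were led on chromosome 2 by 85027735 to 85028529, 85035969 to 85037099 and 85970138 to 85971272, all in the first 1 Mb of the window. The region at 85027735 had 25 tags in control islets, 42 in T2D islets, 66 in control sperm and 45 in T2D sperm. At 85035969 the values were 71, 74, 62 and 58, and at 85970138 they were 34, 38, 72 and 41. Those of chromosome 9 were 38988427 to 38989372, with 37, 47, 66 and 71 tags, 39283680 to 39284295, with 47, 49, 39 and 30, and 37962883 to 37964232, with 57, 30, 85 and 101.

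Peak numbers in the arrays did not separate the fathers' conditions beyond counting error. T2D over control peak number was 1.04 (0.818 to 1.33) in islets and 0.943 (0.688 to 1.29) in sperm on chromosome 2, and 1.2 (0.811 to 1.77) and 1.21 (0.810 to 1.82) on chromosome 9. All these intervals include 1 and also the flank values of 1.05, 1.05, 1.07 and 1.05. On chromosome 9 the intervals span 0.810 to 1.82, and differences inside that range were not detectable at this depth.

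In islets the members were shared between conditions about as often as other peaks, and in sperm less often under some settings only. Of the control islet members 128 of 185 had a T2D partner, or 69.2% (62.2% to 75.4%), and of the T2D islet members 128 of 201 had a control partner, or 63.7% (56.8% to 70.0%). The flanks gave 68.8% and 65.0%. Members without a partner came to 30.8% and 36.3%, against 32.7% and 32.7% of the whole islet lists. In sperm 80 of 134 control members, 59.7% (51.2% to 67.6%), and 80 of 139 T2D members, 57.6% (49.2% to 65.5%), had a partner, against 71.7% (69.4% to 73.9%) and 68.4% (66.1% to 70.6%) in the flanks. Those without one made up 40.3% and 42.4%, against 30.1% and 30.6% of the whole sperm lists. By window, the control sperm share was 54.0% (43.6% to 64.1%) on chromosome 2 and 70.2% (56.0% to 81.3%) on chromosome 9, with flanks at 70.8% and 72.4%. The T2D sperm shares were 57.3% (46.5% to 67.5%) and 57.9% (45.0% to 69.8%), with flanks at 67.4% and 69.2%. The window intervals thus included the flank values on chromosome 9 and, for T2D sperm, narrowly on chromosome 2. That of control sperm on chromosome 2 did not. The lower sperm share stood apart from the flanks also when partners within 1000 bp counted, at 61.2% (52.7% to 69.0%) and 58.3% (49.96% to 66.1%) against 75.6% and 72.3%, but not under the other settings tried. With a reciprocal overlap of 50% it was 57.5% (49% to 65.5%) in control and 55.4% (47.1% to 63.4%) in T2D sperm, against 66.6% (64.2% to 68.9%) and 63.5% (61.1% to 65.8%) in the flanks, so the intervals overlapped. Among the better 50% of peaks by score, 62.1% (49.2% to 73.4%) of control and 57.1% (44.9% to 68.6%) of T2D sperm members had a partner, against 63.9% and 61.8% in the flanks, and the intervals overlapped here too. In islets the same peaks gave 67.3% (57.9% to 75.4%) and 66.7% (57.3% to 74.8%), with intervals that overlapped those of the flanks at 60.8% (57.1% to 64.3%) and 57.9% (54.3% to 61.4%).

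Members without a partner held fewer tags than members with one, as did peaks elsewhere. In islets they had a median of 22 and 24 tags, control first, against 37 tags in either library for members with a partner, and in sperm 28.5 and 26 tags against 37.5 and 36.5. In the flanks the medians without and with a partner were 28 and 44 in control islets, 29 and 45 in T2D islets, 37.5 and 57 in control sperm and 37 and 56 in T2D sperm. With no partner allowed within 1000 bp, the most enriched T2D islet member of chromosome 2 ran from 86815723 to 86816193 (32 tags, enrichment 13.04) and the most enriched control islet member from 85701040 to 85701548 (28 tags, 11.22), neither with a sperm peak. In control sperm it was 85750286 to 85750925 (42 tags, 11.38), without an islet peak, and in T2D sperm 89091480 to 89092111 (41 tags, 11.96), with a peak in 1 islet library. The corresponding members of chromosome 9 had 27 to 40 tags and enrichments of 8.92 to 11.67. That of T2D islets, from 39894727 to 39895623 with 40 tags, lay at the end of the window and had peaks in both sperm libraries.

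Tags of matched members changed little. Summed over the 128 pairs of islet members, tags came to 5629 in control and 5740 in T2D, giving 1.02 (0.983 to 1.06), against 1.01 over all matched islet peaks. The 80 pairs of sperm members held 3767 and 3629 tags, a ratio of 0.963 (0.920 to 1.01), against 0.999. Of the 4 ratios by window and tissue, that of sperm on chromosome 2 alone had an interval without 1, at 0.921 (0.867 to 0.978). Tags there were fewer in T2D in 27 of 47 pairs, more in 16 and equal in 4. Over all matched sperm peaks they were fewer in 59119 of 123435 pairs, more in 60840 and equal in 3476. The spread between libraries of the same group is unknown, so this ratio compares a pair of libraries and not the conditions. At least 2-fold more tags in T2D were found in 4 of 128 islet pairs (3.13%, against 2.23% of all islet pairs) and at least 2-fold fewer in 3 (2.34%, against 1.62%). In sperm 0 of 80 pairs passed 2-fold in either direction, which allows a share of up to 3.75%, against 1.63% and 1.58% of all sperm pairs.

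Condition-specific peaks of islets and of sperm were set side by side over the 353 regions. T2D only in both tissues held for 8 regions (2.27%, against 2.23% of all merged regions) and control only in both for 5 (1.42%, against 2.25%). T2D only in islets with control only in sperm held for 1 region (0.283%, against 2.2%), and the reverse for 3 (0.850%, against 2.24%). With 1 to 8 regions a class, 3 of the 4 Wilson intervals include the share of all merged regions. That of the class with 1 region ends at 1.59%, and this class was singled out after its value was seen.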

How the data were processed

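DNA methylation was measured by MeDIP-seq in 4 libraries, 1 per group, and the authors deposited 1 peak list per library. Per the submitters' processing notes the build was mm9 and CASAVA 1.4 was used. Per the file headers of the sperm lists, MACS called peaks on 49 bp reads with no control library, a p-value threshold of 1.00e-05, a local background over 5000 bp and at most 2 reads per position. The headers of the islet lists give column names only, and the sources used here do not give their caller. With no input library, differences in mappability or copy number are not removed, and near-identical receptor genes can lose reads that map to several places. Per the file headers, each list gives the count of tags per peak as deposited, a deposited score (the negative log10 of p, times 10), and the deposited fold enrichment, a ratio over the caller's background. Width in bp is from the deposited peak positions.

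Overlaps were computed in Python 3.11.15 with numpy 2.4.6 and checked against bedtools 2.31.1 over the whole lists, and the steps were tested on simulated data. Ratios of counts carry exact binomial and shares Wilson intervals (scipy 1.17.1, 95%). PCR copies are not independent molecules. Matched pairs were each other's largest overlap. Named regions were the 3 of each class with the highest summed score or lower enrichment, and the most enriched or widest peaks. Receptor genes were named by RefSeq symbols starting with Olfr or Or and a digit. An array allowed 2 other coding genes in a row. The printed sequences are the first 3 class II receptors (MOR number 100 or higher) of the largest array with an entry, chosen in place of the first on the chromosome, which belong to other arrays. Windows, lists and rules were chosen with earlier results of these data known. Alternatives were the better 50% of peaks by score, peak centres, trimmed windows, 2 Mb flanks, a reciprocal overlap of 50% and partners within 1000 bp. Peaks at receptor promoters were not counted, because no mm9 annotation was used here.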

Additional observations from a re-analysis of the deposited data

Results flagged for a closer look

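Some values of the windows moved in opposite directions from control to T2D in islets and in sperm, and others did not. With 1 library per group the difference was not tested. In the chromosome 2 window the number of peaks was 6 higher in T2D than in control islets and decreased by 5 in sperm. The covered length was 7.48 kb greater in islets and decreased by 7.58 kb in sperm. Median enrichment decreased by 0.075 in islets and was 0.44 higher in sperm. In the chromosome 9 window median width was 16 bp greater in islets and decreased by 33 bp in sperm. Median enrichment decreased by 0.43 in islets and was 0.39 higher in sperm, and the median score decreased by 8.14 in islets and was 0.46 higher in sperm. The other measures compared were not opposite. On chromosome 2, T2D minus control in islets and in sperm was 22 and 14 bp for median width. It was 0 and -0.5 for median tags and -1.52 and -2.285 for median score. On chromosome 9 it was 10 and 10 for peaks, 10.9 and 8.76 kb for covered length and 3 and 1 for median tags.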

How the results depend on the processing

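The window over flank densities of all 8 combinations of window and library kept their direction and stayed within the intervals given. On chromosome 2, some islet and sperm intervals overlapped. With flanks of 2 Mb both islet intervals met that of control sperm, and with trimmed windows only the T2D islet interval did. Within a condition, only the control libraries with 2 Mb flanks overlapped. For the better 50% of peaks, islet intervals began at 0.350 and 0.342, and sperm intervals ended at 0.293 and 0.291. The densities ranged from 0.207 to 0.456 for the better 50% of peaks by score, from 0.232 to 0.398 by peak centre, from 0.208 to 0.387 with windows trimmed by 250 kb and from 0.230 to 0.392 with flanks of 2 Mb. The shares with a partner in the other condition stayed within their intervals under all 3 alternatives, from 55.4% to 71.4%, although with the better 50% of peaks and with a reciprocal overlap of 50% the sperm intervals overlapped those of the flanks. With the better 50% of peaks, the share of islet members with a sperm partner moved to 31.8% in control and 30.6% in T2D islets, with flanks at 63.5% and 57.6%, and sperm members stayed within their intervals at 60.3% and 47.6%, flanks 57.9% and 54.7%. In control sperm the window share was then above that of its flanks, but the intervals (47.5% to 71.9% and 54.4% to 61.3%) overlapped. With the same peaks the median tags were 39 and 40 in islets and 40.5 and 40 in sperm, the median enrichments 9.36, 9.40, 9.26 and 9.20, and the median width of T2D islet members 830.5 bp. The fewer tags, lower widths and higher enrichments against the flanks held there in all 4 libraries. A reciprocal overlap of 50% left the matched tag ratios at 1.02 and 0.967. Counts of 47 to 140 peaks per window limit all comparisons of conditions, and the islet depth is unknown.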
